A study of Rattus norvegicus with 12 samples.

Results

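The 8 libraries described here compare rat liver cells kept beside human amniotic epithelial cells (hAEC) with the same kind of cells kept with vehicle. They are all of the hAEC and vehicle libraries of a series of 12. The series measured polyadenylated RNA in primary cells labelled as hepatic stellate cells (HSC), isolated on density gradients from rats with cirrhosis after chronic inhalation of CCl4. All groups shared that disease model and 24 h in Transwell culture, in which a porous membrane keeps the human cells apart from the rat cells but lets soluble products through. The hAEC group had 15000 viable human cells, and the vehicle group (Veh in the labels) had none named. Each group had 4 libraries, called here by the labels' sample numbers: hAEC 3, 4, 11 and 12, and vehicle 17, 18, 19 and 20. No source used here gives the rats' age or strain, or says whether libraries of a group came from separate animals or cultures. The p-values therefore cover only the spread seen here, and that spread may be technical.

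The libraries were compared within 2 sets of 4. Set A held hAEC 3 and 4 with vehicle 17 and 18, and set B held hAEC 11 and 12 with vehicle 19 and 20. The labels do not name the sets. They were chosen by the expression values of the libraries, whose main pattern they follow, so differences between the sets themselves are only a description here. With 2 libraries of either group in a set, the set does not stand for the treatment. Across genes, as a description, Spearman's rho was at least 0.9933 between libraries of one set and at most 0.9427 between sets over these 8 libraries. Total counts ran from 27382724 to 31821341. Within a set, the 2 libraries of a group differed from each other with an SD of 0.16 to 0.20 on the log2 scale over 7028 genes, against 0.06 to 0.07 from counting alone, so no pair agreed within counting error. The labelled cell type was checked against its markers. In CPM, the count scaled to a common library size, the 20 measured macrophage markers had a median of 568. The 13 hepatic stellate cell markers had a median of 1.41 CPM, and only 8 were abundant enough to test. Gfap, Hand2, Colec11, Lum and Lrat were too low to test. Reln, on the same list, was at 62.5 and 58.4 CPM with hAEC against 70.0 and 91.4 CPM with vehicle in set A. In set B Reln was at 11.9 and 6.74 CPM against 10.1 and 8.495 CPM. Given these levels, the cells are called the co-cultured rat cells below. In bulk RNA, fewer cells of a type and less RNA per cell cannot be told apart.

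Amniotic epithelial cells line the inner face of the fetal membranes and release soluble factors that act on immune and mesenchymal cells. Stellate cells store vitamin A in the healthy liver and turn into contractile, collagen-making myofibroblasts when liver is injured, and transforming growth factor beta (TGF-beta) is the best known signal for that step. Liver macrophages are a major source of such signals, and they also set the inflammatory tone and clear lipids and dead cells.

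With the set as a block, 10 genes passed the test between hAEC and vehicle. Of these, 8 rose and 2 fell, by 0.25 to 0.55 on the log2 scale. They were the receptor gene Tgfbr1, the channel gene Trpc6, the phosphatase gene Ppp1cb, the glycosylation gene C1galt1, the transport gene Tmed7, the coenzyme A gene Pank3, RGD1309079 and LOC103689964 on the higher side, and Ptprn and Rps18l1 on the lower side. These were 0.0754% of the 13263 genes tested (0.0603% higher and 0.0151% lower) by the quasi-likelihood test of edgeR, adjusted by Benjamini-Hochberg, at 0.05. An unadjusted p under 0.05 was reached by 912 genes, 549 higher and 363 lower, where 663 are expected by chance. Fitted within set A alone, 1085 genes reached it where 662 are expected. Within set B alone it was 669 where 661 are expected. The differences were small throughout: 90% of the genes tested lay between -0.27 and 0.25 on the log2 scale, with a median of -0.00375. The number of calls rested on single libraries. It was 13 without hAEC 4, of which 6 were among the 10. It was 1 without hAEC 3, 2 without hAEC 11 and 1 without vehicle 17, none of them among the 10, and 0 by edgeR without hAEC 12 (1029 genes at an unadjusted p under 0.05), vehicle 18 (714), vehicle 19 (1002) or vehicle 20 (797). Limma voom called 12 genes (0.0905%) and DESeq2 39 (0.294%) on all 8 libraries, and both lists held the 10 genes. With the 4 libraries of the other co-culture added to the edgeR fit, 0 genes passed and 759 had an unadjusted p under 0.05.

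**Figure D1:**
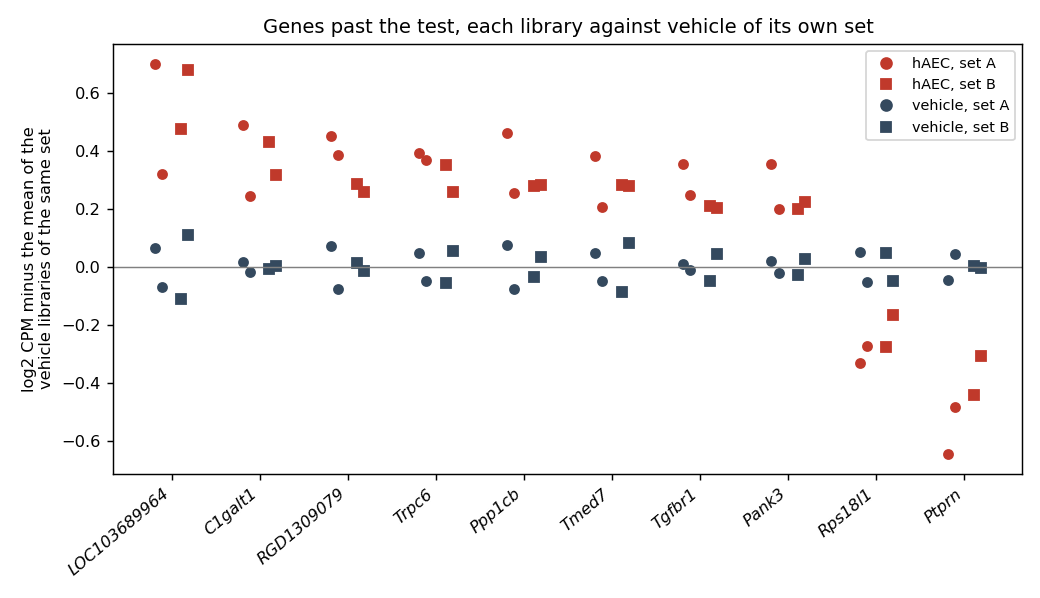
The 10 genes that passed, in each of the 8 libraries: log2 CPM minus the mean of the vehicle libraries of the same set (vertical axis) by gene (horizontal axis), red for hAEC, dark blue for vehicle, circles for set A and squares for set B. In each set every hAEC point lies above both vehicle points for 8 genes and below both for Rps18l1 and Ptprn.

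Among signalling genes, Tgfbr1 rose. It encodes the type I TGF-beta receptor, the kinase that phosphorylates Smad2 and Smad3. In set A it stood at 414.9 and 385.4 CPM in hAEC 3 and 4 against 326.4 and 322.1 CPM in vehicle 17 and 18. In set B it stood at 955.3 and 951.3 CPM in hAEC 11 and 12 against 800.2 and 853.4 CPM in vehicle 19 and 20. The hAEC libraries were above the vehicle libraries within both sets, although set B was higher than set A in either group. The log2 difference was 0.25 (SE 0.04; edgeR quasi-likelihood, Benjamini-Hochberg adjusted p = 0.0419), with 0.31 in set A and 0.20 in set B. Its adjusted p over the alternatives ran from 2.167e-06 by DESeq2 to 1. Its direction held in 18 of 18 alternatives, which refit the same counts and could hardly reverse it.

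Trpc6, a cation channel opened by diacylglycerol that lets calcium into the cell, rose too. Its level in set A was low, at 8.89 and 8.74 CPM with hAEC against 6.99 and 6.54 CPM with vehicle. In set B it was at 73.3 and 68.7 CPM against 55.3 and 59.7 CPM. The sets differed several-fold in level, but the difference from vehicle was alike in them (log2 0.39 in set A and 0.30 in set B, and 0.34 over both, SE 0.06; edgeR adjusted p = 0.0419). Ppp1cb, a catalytic subunit of protein phosphatase 1 that acts on myosin light chain among other substrates, was at 112.2 and 97.2 CPM with hAEC against 85.8 and 77.2 CPM with vehicle in set A. In set B it was at 97.8 and 98.1 CPM against 78.7 and 82.5 CPM. All 4 hAEC libraries lay above all 4 vehicle libraries whatever the set, and it rose by 0.32 on the log2 scale (SE 0.05; edgeR adjusted p = 0.0419). Library hAEC 3 stood apart from the other 3 hAEC libraries, which lay between 97.2 and 98.1 CPM.

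C1galt1, Tmed7 and RGD1309079, set side by side here after their values were seen, encode proteins of the secretory pathway. C1galt1 is the enzyme that adds galactose to form the core 1 structure of mucin-type O-glycans. It was at 45.7, 38.7, 44.4 and 41.1 CPM in hAEC 3, 4, 11 and 12 against 33.0, 32.2, 32.8 and 33.1 CPM in vehicle 17, 18, 19 and 20. The vehicle libraries were nearly equal across the sets, every hAEC library was higher, and the log2 difference was 0.37 (SE 0.06; edgeR adjusted p = 0.0419). Tmed7, a p24 family cargo receptor of transport between the endoplasmic reticulum and the Golgi, was at 100.6, 89.0, 98.3 and 98.1 CPM against 79.8, 74.6, 76.2 and 85.7 CPM in the same order. All 4 hAEC libraries again lay above all 4 vehicle libraries, though hAEC 4 exceeded vehicle 20 by only a few CPM (log2 0.29, SE 0.05; edgeR adjusted p = 0.0471). RGD1309079, which RefSeq lists as Dipk2a, a secreted kinase-like protein of the Golgi, was at 21.8 and 20.9 CPM with hAEC against 16.8 and 15.2 CPM in set A. In set B it was at 50.8 and 49.9 CPM against 42.1 and 41.3 CPM, and it rose by 0.34 overall (SE 0.06; edgeR adjusted p = 0.0419).

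Pank3, a pantothenate kinase that starts the synthesis of coenzyme A, was at 134.7 and 121.1 CPM with hAEC against 106.9 and 103.8 CPM with vehicle in set A. In set B it was at 147.6 and 149.9 CPM against 126.0 and 130.7 CPM, a rise of 0.25 over both sets (SE 0.04; edgeR adjusted p = 0.0471). The groups were apart within each set and overlapped between sets. LOC103689964, a provisional gene model for which no function is given, rose the most, from 12.3, 11.2, 10.6 and 12.3 CPM with vehicle to 19.1, 14.7, 15.9 and 18.3 CPM with hAEC (log2 0.55, SE 0.10; edgeR adjusted p = 0.0471). Its hAEC libraries spread more widely than its vehicle libraries.

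Ptprn and Rps18l1 fell. Ptprn encodes a catalytically inactive receptor-type tyrosine phosphatase of dense-core vesicles, best known in endocrine and nerve cells. It was at 26.2 and 29.3 CPM with hAEC against 39.7 and 42.2 CPM with vehicle in set A, and at 2.88 and 3.16 CPM against 3.92 and 3.90 CPM in set B. Most of its counts thus came from set A, where it also passed alone, and the log2 difference was -0.49 over both sets (SE 0.08; edgeR adjusted p = 0.0419). Rps18l1, named for its likeness to the ribosomal protein gene Rps18, was at 252.0 and 262.3 CPM against 328.5 and 305.4 CPM in set A and at 176.8 and 190.8 CPM against 221.0 and 207.0 CPM in set B. Its log2 difference was -0.26 (SE 0.04; edgeR adjusted p = 0.0419). Reads of such a near copy can be shared with Rps18 in the authors' counting, so the value of Rps18l1 is uncertain. Rps18 itself had a log2 difference of 0.05 and did not pass.

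The other genes of TGF-beta signalling did not follow Tgfbr1 as a group. Of 23 list members tested 1 rose (Tgfbr1) and 0 fell. The edgeR log2 differences were above 0 for 11 and below 0 for 12, with a median of -0.02 beside -0.004 over all genes tested. Among ligands, Tgfb1 was at 248.8, 264.1, 240.6 and 287.6 CPM with hAEC against 248.5, 242.1, 261.7 and 288.6 CPM with vehicle. The hAEC libraries were just above vehicle in set A and overlapped it in set B (log2 0.00 over both, SE 0.06), with no call. The partner receptor gene Tgfbr2 had a log2 difference of 0.03 and the co-receptor gene Tgfbr3 one of -0.07. For the Smad proteins that carry the signal, the values were 0.02 for Smad2, -0.05 for Smad3 and 0.02 for Smad4. Smad7, the inhibitory Smad that is itself a target of the pathway, was at 38.2, 36.0, 31.0 and 33.0 CPM with hAEC against 33.7, 32.6, 27.7 and 28.7 CPM with vehicle. Its libraries were apart in both sets, at a log2 difference of 0.17 (SE 0.05), but it did not pass (edgeR adjusted p = 0.433). The target gene Id1 had a log2 difference of 0.23, and Ltbp2, which stores latent TGF-beta family complexes in matrix, one of -0.32. None of these passed.

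Enzymes of sterol synthesis lay mostly above vehicle, with no single member past the test. Cholesterol is made from acetyl-CoA through mevalonate and squalene, and cells raise these enzymes together through the transcription factor SREBP-2 when membrane sterol is short. In the promoters of this pathway SREBP-2 is known to work beside NF-Y, a factor that binds the CCAAT box. RefSeq promoters (build GRCr8, which is not the build of the counts) were found for 16 of the 21 enzymes, as windows of 300 bases from 250 before to 50 after the gene's start. The letters GCCAAT, the CCAAT box with the base before it, were present on either strand in 12 of the 16 (75.0%), against 14.0% of all 33469 promoters of that length. Both hAEC libraries exceeded both vehicle libraries in each set for 4 of the 12 genes that hold it, against 4.22% of all genes tested. The same held for Cyp51, whose window had no GCCAAT. The windows of 3 of the 4 genes that hold it are shown as examples (Sc5d is the other). Matches are in capitals (ATTGGC where they lie on the other strand). Hmgcs1 makes the precursor of mevalonate and lies on the plus strand at chr2:53382054-53382353. Idi1 isomerises the first isoprenoid unit and lies on the minus strand at chr17:66547475-66547774. Msmo1 oxidises the methyl groups of the sterol nucleus and lies on the plus strand at chr16:29746863-29747162.
Hmgcs1: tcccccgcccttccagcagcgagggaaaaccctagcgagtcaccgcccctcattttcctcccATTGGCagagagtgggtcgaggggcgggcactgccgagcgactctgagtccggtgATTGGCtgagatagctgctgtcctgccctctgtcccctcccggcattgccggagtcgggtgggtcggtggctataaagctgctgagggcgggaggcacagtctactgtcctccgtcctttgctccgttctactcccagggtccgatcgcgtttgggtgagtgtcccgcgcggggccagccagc
Idi1: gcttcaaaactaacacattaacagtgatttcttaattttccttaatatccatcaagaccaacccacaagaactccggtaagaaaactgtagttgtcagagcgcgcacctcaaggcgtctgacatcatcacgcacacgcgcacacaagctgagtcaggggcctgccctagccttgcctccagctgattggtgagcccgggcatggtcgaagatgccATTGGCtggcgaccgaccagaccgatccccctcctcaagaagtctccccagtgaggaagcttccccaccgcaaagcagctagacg
Msmo1: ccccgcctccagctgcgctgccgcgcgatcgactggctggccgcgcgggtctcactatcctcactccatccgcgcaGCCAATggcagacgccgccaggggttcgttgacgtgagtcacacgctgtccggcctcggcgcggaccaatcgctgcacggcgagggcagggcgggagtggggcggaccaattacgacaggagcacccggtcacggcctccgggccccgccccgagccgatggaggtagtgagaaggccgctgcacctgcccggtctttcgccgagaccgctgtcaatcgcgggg
Hmgcs1 had 2 matches, which began 188 and 133 bases before the start, Idi1 had 1 that began 35 bases before it and Msmo1 1 that began 174 bases before it. The sterol element letters TCACCCCAC were in 0 of the 16 windows and in 0.484% of all promoters, and TCACNCCAC in 0 and in 1.12%. The E-box CACGTG was in 1 of the 16 (6.25%) and in 6.42% of all promoters. A match of letters is a description and not a measured site, and a link between the letters and the hAEC difference was not tested.

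Of the 21 enzymes 19 had a log2 difference above 0 and 2 below (Mvk at -0.12 and Dhcr7 at -0.06), with 0 called. The median was 0.09, with 0.13 in set A and 0.08 in set B, beside -0.004 over all genes tested. For 6 members, Hmgcs1, Idi1, Sqle, Cyp51, Msmo1 and Sc5d, both hAEC libraries exceeded both vehicle libraries in each set, which 4.22% of all genes tested did (0 members were lower in both, against 3.63%). Cyp51, the sterol demethylase that follows lanosterol, was the nearest to passing. It was at 54.9 and 55.1 CPM with hAEC against 48.7 and 47.4 CPM in set A and at 125.3 and 121.3 CPM against 105.4 and 111.0 CPM in set B. Its log2 difference was 0.19 (SE 0.04), 0.20 in set A and 0.19 in set B (edgeR adjusted p = 0.152). DESeq2 called it on all 8 libraries (adjusted p = 0.0173), and the edgeR fit with no filter did as well (adjusted p = 0.0478). Idi1 was at 17.5 and 15.3 CPM against 13.3 and 14.1 CPM in set A and at 32.4 and 32.7 CPM against 27.2 and 28.0 CPM in set B. The sets agreed in the size of its difference (log2 0.26 and 0.24, SE 0.06 over both). Hmgcs1 was at 42.3 and 41.2 CPM against 39.0 and 36.8 CPM in set A and at 66.5 and 72.1 CPM against 64.1 and 63.7 CPM in set B (log2 0.13, SE 0.04). Msmo1 was at 34.2 and 33.7 CPM against 30.1 and 28.1 CPM and at 56.3 and 53.4 CPM against 46.9 and 51.7 CPM in the same order (log2 0.19, SE 0.05).

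**Figure D2:**
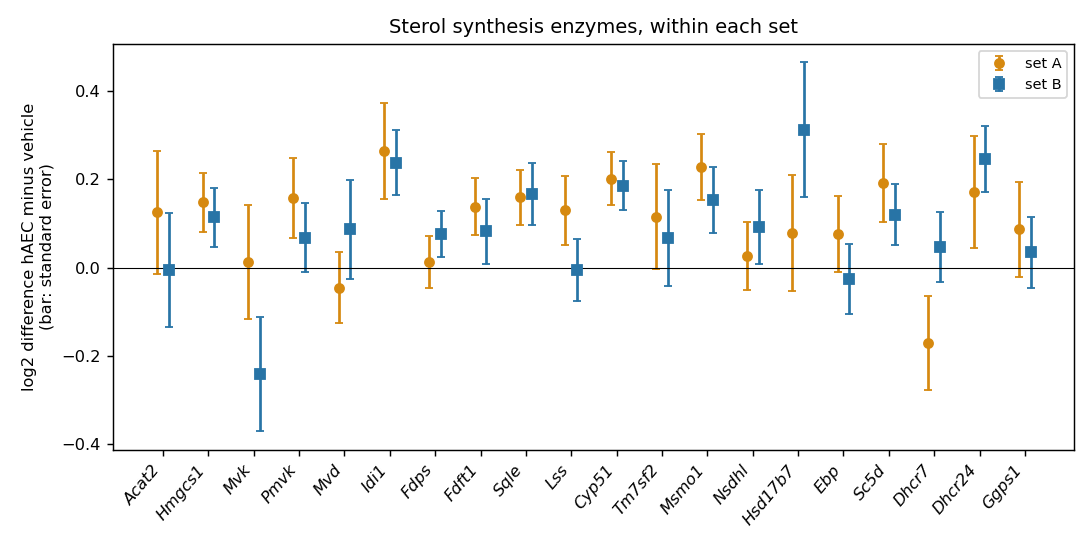
Sterol synthesis enzymes that are reported here, in pathway order (horizontal axis) with the log2 difference hAEC minus vehicle fitted within set A (orange circles, 2 against 2 libraries) and within set B (blue squares, 2 against 2); bars are standard errors. Most points lie above 0 in both sets, and the lowest are Mvk in set B and Dhcr7 in set A.

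Genes that sense and take up sterol had 11 of 14 members above 0 and 3 below, with a median of 0.04 and 0 called. Stard4, a carrier of cholesterol between membranes (log2 0.13), and Mylip, a ubiquitin ligase induced by liver X receptors (0.15), were higher with no overlap in either set, as were 4.22% of all genes tested. Insig1, which holds SREBP in the endoplasmic reticulum, had a log2 difference of 0.02 in set A and 0.19 in set B. Srebf2, which encodes SREBP-2, had 0.10 and -0.001 in the same order. In lipid metabolism at large, 9 of 15 fatty acid genes were above 0 (median 0.03) and 4 of 13 genes of liver X receptor targets and sterol efflux (median -0.02), none of them called. Fads1, a desaturase of long-chain fatty acids, was higher in both sets with no overlap (log2 0.29, SE 0.06; edgeR adjusted p = 0.195).

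Lpl, the lipase that frees fatty acids from lipoprotein triglyceride and a product of lipid-loaded macrophages, rose within set B. It was at 370.2 and 389.1 CPM in hAEC 11 and 12 against 283.6 and 291.2 CPM in vehicle 19 and 20 (log2 0.40, SE 0.05; edgeR within set B, adjusted p = 0.0205). In set A it was at 628.3 and 607.0 CPM against 594.4 and 559.2 CPM (log2 0.11, SE 0.05; adjusted p = 0.639 by edgeR). Over both sets Lpl did not pass by edgeR (log2 0.25, SE 0.06; adjusted p = 0.278) and passed by DESeq2 (adjusted p = 0.00473), and its difference between the sets did not pass either (edgeR adjusted p = 0.283).

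**Figure D3:**
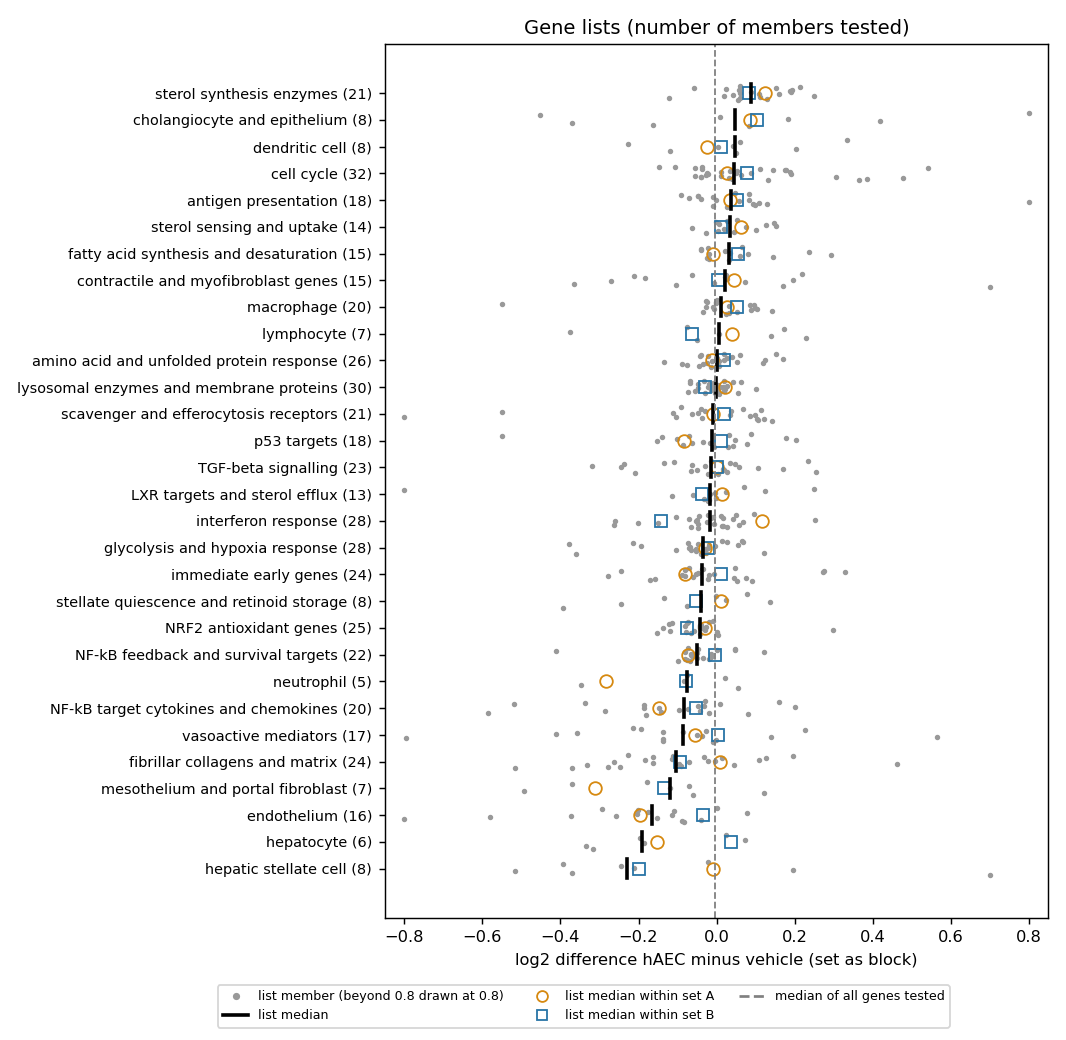
Every tested member of each gene list (grey points; values beyond 0.8 in either direction are drawn at 0.8) by its log2 difference hAEC minus vehicle with the set as block (horizontal axis), with the list median (black bar), the medians within set A (orange circle) and set B (blue square) and the median of all genes tested (dashed line). Sterol synthesis has the highest median at 0.09. Hepatic stellate cell markers, of which 8 were tested at a median of 1.87 CPM, have the lowest at -0.23.

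Inflammatory genes lay mostly below vehicle with the set as a block, and no member was called there. Of 20 target genes of NF-kB that encode cytokines and chemokines, 16 were below 0 and 4 above (median -0.08, with -0.15 in set A and -0.05 in set B). Of 22 NF-kB genes of feedback and survival, 18 were below 0 and 4 above (median -0.05, with -0.07 in set A and -0.005 in set B). Over all 13263 genes tested 6874 were below 0. Below 0 in both sets were 8 of the 20 and 8 of the 22, against 3343 of all genes tested. Above 0 in both sets were 2 and 3 in the same order, against 3224. Ccl3, a chemokine that draws monocytes, was at 209.4 and 216.8 CPM with hAEC against 246.0 and 237.4 CPM in set A. In set B, at 45.7 and 51.5 CPM against 50.3 and 54.6 CPM, the libraries overlapped (log2 -0.15 over both, SE 0.05; edgeR adjusted p = 0.439). Ccl4, its close relative, was lower with no overlap in both sets (log2 -0.19, SE 0.06), and so were Icam1 (-0.08), Tnip1 (-0.07) and Tnfaip2 (-0.06). These were 1 of 20 cytokine and chemokine genes and 3 of 22 feedback genes, against 3.63% of all genes tested. Cxcl2, which draws neutrophils, fell within set A, from 164.5 and 178.5 CPM to 129.5 and 129.5 CPM (log2 -0.40; edgeR within set A, adjusted p = 0.0200). In set B it was at 10.01 and 11.3 CPM with hAEC against 9.75 and 13.1 CPM with vehicle, and the groups overlapped. Il1b showed no such difference in set A, at 630.0 and 723.4 CPM against 681.2 and 685.8 CPM, and its log2 difference over both sets was -0.02 (SE 0.05). The interferon list had unlike medians in the sets, 0.12 in set A and -0.14 in set B, with 17 of 28 members below 0 over both.

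Antioxidant genes driven by the factor NRF2 were below 0 in 22 of 25 cases, with a median of -0.04 (-0.03 in set A and -0.08 in set B) and 0 called. For 6 of them, Nqo1, Hmox1, Gclm, Sqstm1, Gstm1 and Gstp1, both hAEC libraries were under both vehicle libraries in each set, as for 3.63% of all genes tested. Nqo1, a quinone reductase, was at 245.1 and 248.4 CPM against 287.4 and 276.5 CPM in set A and at 535.3 and 513.9 CPM against 577.9 and 556.2 CPM in set B (log2 -0.15, SE 0.04; edgeR adjusted p = 0.254). DESeq2 called Nqo1 (adjusted p = 0.0244). Slc7a11, the cystine transporter that feeds glutathione synthesis and is also a target of the amino acid response, went the other way. It was at 94.2 and 85.1 CPM with hAEC against 73.7 and 84.9 CPM in set A and at 25.6 and 22.9 CPM against 16.95 and 18.6 CPM in set B (log2 0.30, SE 0.07; edgeR adjusted p = 0.343; DESeq2 adjusted p = 0.0434). The metallothionein genes, whose products bind zinc and copper, were lower. Mt2A was at 73.3 and 75.0 CPM against 93.8 and 94.97 CPM in set A and at 11.5 and 9.94 CPM against 13.1 and 11.6 CPM in set B. It fell within set A (log2 -0.34; edgeR within set A, adjusted p = 0.0375). Over both sets it missed the threshold by edgeR (log2 -0.29, SE 0.06; adjusted p = 0.123) and passed by limma voom (adjusted p = 0.0321) and DESeq2 (adjusted p = 0.00909). Mt1 had a log2 difference of -0.31 (SE 0.07; edgeR adjusted p = 0.245; DESeq2 adjusted p = 0.0167).

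Of the lists on stellate cell biology, no gene but Tgfbr1 passed with the set as a block, and the tested matrix and contractile genes had medians of 2.76 and 3.08 CPM. Acta2, the smooth muscle actin of myofibroblasts, was at 2.44 and 2.34 CPM with hAEC against 0.942 and 0.994 CPM with vehicle in set A. In set B it was at 3.01 and 2.43 CPM against 2.40 and 2.39 CPM, so nearly all of the difference lay in set A (log2 1.30 and 0.18; 0.70 over both, SE 0.23; edgeR adjusted p = 0.487). Col1a1, the main fibrillar collagen, was at 2.01, 1.26, 1.96 and 2.17 CPM with hAEC against 1.92, 1.12, 3.25 and 3.94 CPM with vehicle. Its hAEC libraries were lower in set B and overlapped vehicle in set A (log2 -0.37, SE 0.25). Col3a1 had a log2 difference of -0.52 (SE 0.27), and Timp1, an inhibitor of matrix proteases, one of -0.16 (SE 0.08), neither past the test. Over the matrix list 18 of 24 members were below 0 (median -0.10, with 0.01 in set A and -0.10 in set B), and over contractile genes 7 of 15 (median 0.02). Fn1, fibronectin, was at 68.5 and 68.1 CPM against 77.4 and 72.8 CPM and at 20.6 and 22.4 CPM against 22.6 and 26.5 CPM (log2 -0.16, SE 0.05; edgeR adjusted p = 0.504). Hgf, a growth factor for hepatocytes that stellate cells make, was at 27.5, 25.9, 66.5 and 69.5 CPM with hAEC against 23.8, 20.6, 58.2 and 61.2 CPM with vehicle. It was higher in each set without overlap but did not pass (log2 0.23, SE 0.05; edgeR adjusted p = 0.254).

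Col4a1, Col4a2, Lamc1 and Pxdn, 4 genes of the basement membrane, fell within set A. Col4a1 and Col4a2 encode the 2 chains of its main type IV collagen, Lamc1 a laminin chain, and Pxdn the peroxidase that cross-links type IV collagen; they are named together after their values were seen. Col4a1 was at 150.7 and 143.3 CPM with hAEC against 188.7 and 206.3 CPM with vehicle (log2 -0.42, SE 0.06; edgeR within set A, adjusted p = 0.0200). Col4a2 was at 81.5 and 80.4 CPM against 104.8 and 114.9 CPM (log2 -0.43, same adjusted p by edgeR). Lamc1, at 58.4 and 64.9 CPM against 79.7 and 82.2 CPM, had an edgeR adjusted p of 0.0463, and Pxdn, at 46.1 and 49.9 CPM against 61.4 and 65.7 CPM, one of 0.0490. In set B the same genes gave log2 differences of -0.04, -0.06, -0.06 and -0.09, and Col4a1 was at 29.6 and 28.6 CPM with hAEC against 29.3 and 30.2 CPM with vehicle. The test of the difference between the sets did not pass for any of the 4 (edgeR adjusted p = 0.209 for Col4a1, the smallest). Endothelial markers moved with them: 14 of 16 were below 0, and their mean log2 CPM in set A was 4.22 and 4.36 with hAEC against 4.48 and 4.50 with vehicle. In set B it was 3.05 and 2.93 against 3.10 and 3.09. The list median was -0.20 in set A and -0.04 in set B. Of the 16 markers, 7 were below 0 in both sets and 0 were above 0 in both. For 4 of them the hAEC libraries were lower with no overlap in both sets, against 3.63% of all genes tested, and for 0 they were higher. The endothelial members Cdh5 (161.6 and 168.6 against 179.3 and 182.0 CPM) and Tek (56.1 and 55.8 against 63.8 and 62.7 CPM) were lower with hAEC in set A and not in set B, and the sinusoidal genes Stab2 and Clec4g lay between 0 and 1.56 CPM. The part of endothelial RNA in the lower values was not tested.

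Within set A alone, 16 of 13247 genes passed (0.121%), 6 higher (0.0453%) and 10 lower (0.0755%). Beside Ptprn, Cxcl2, Mt2A and the 4 genes just described, the lower ones were Cyp4f5, the vasodilator peptide gene Adm and the aryl hydrocarbon receptor target Cyp1a1. Adm was at 45.0 and 45.9 CPM with hAEC against 61.3 and 62.7 CPM with vehicle, and Cyp1a1 at 16.8 and 17.6 CPM against 26.9 and 26.0 CPM (edgeR within set A, adjusted p = 0.0200 and 0.0217). In set B, Adm lay at 4.09 and 5.21 CPM against 3.71 and 4.38 CPM and Cyp1a1 at 18.7 and 15.4 CPM against 20.9 and 16.7 CPM, with overlapping libraries. Among the higher ones, Ms4a6e was listed at 0 in both vehicle libraries of set A and at 3.08 and 3.35 CPM with hAEC. In set B all 4 libraries lay between 53.4 and 96.3 CPM, with overlap. The part of shared reads in the Ms4a6e zeros was not tested. Of the 14 genes of set A that were measured in set B, 9 had the same direction there (64.3%), against 51.4% of all 12771 genes measured in both. Leaving out hAEC 3, hAEC 4, vehicle 17 or vehicle 18 gave 39, 145, 38 and 52 calls, with the lone library assumed to vary like the others.

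Within set B alone, 11 of 13225 genes passed (0.0832%), 7 higher (0.0529%) and 4 lower (0.0302%). Lsp1, Ccr7, Sema4f, Lpl, Hnrnpc, Rpl7a and Pigg were the higher ones. Pigg had the smallest adjusted p (2.357e-08, edgeR within set B), at 28.2 and 34.3 CPM with hAEC against 0.106 and 0.110 CPM with vehicle. In set A it was at 0.0334 and 0.189 CPM against 0 and 2.405 CPM. It was not among the genes tested over the 8 libraries. Reads that match several genes are shared out in the authors' counting, and the part of this in the Pigg values was not tested. Cetn3, LOC100911881 and LOC102553138 were among the lower ones, and these 3 were listed at 0 or nearly 0 CPM in hAEC 11 and 12. Rpl7a, a ribosomal protein gene with many near copies, was at 78.4 and 78.2 CPM with hAEC against 39.5 and 41.6 CPM with vehicle, and in set A at 35.1 and 74.8 CPM against 40.4 and 39.0 CPM. Of the 9 that were measured in set A, 3 had the same direction there (33.3%). Leaving out hAEC 11, hAEC 12, vehicle 19 or vehicle 20 gave 26, 19, 17 and 82 calls. Across all genes, the differences in the 2 sets had little in common: among 7025 genes with a mean of at least 20 CPM, Spearman's rho between them was 0.075, as a description across genes.

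**Figure D4:**
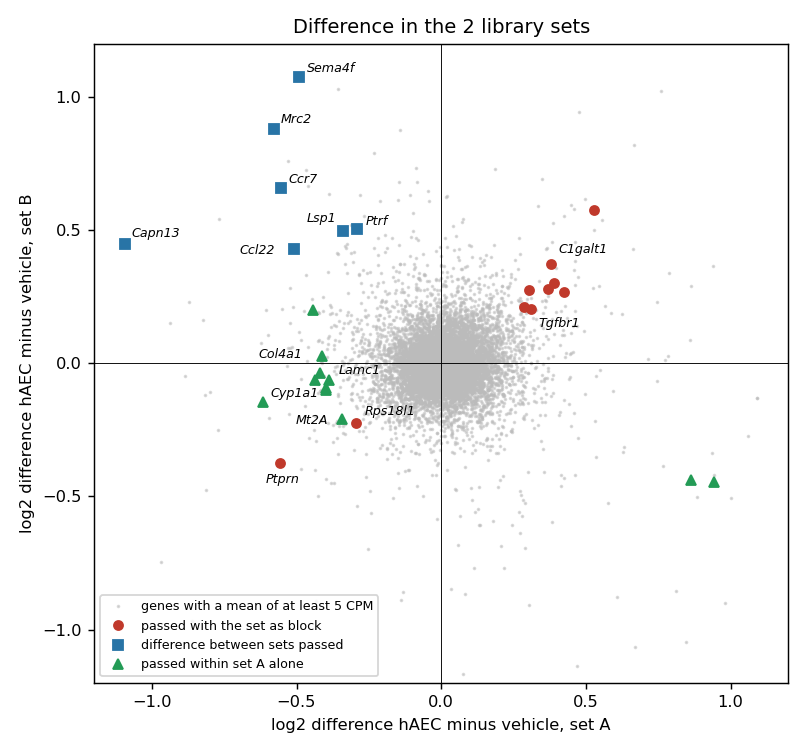
Log2 difference hAEC minus vehicle in set A (horizontal axis) and in set B (vertical axis) for 9901 genes with a mean of at least 5 CPM (grey), of which 26 lie outside the axes; red circles passed with the set as block, blue squares differed between the sets by the group by set term, green triangles passed within set A alone. The red circles lie in the quadrants of like sign, and the blue squares are below 0 in set A and above 0 in set B.

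The hAEC difference was itself unlike in the 2 sets for 8 genes (0.0603% of 13263, group by set term of edgeR's quasi-likelihood fit), 7 higher in set B than in set A (0.0528%) and 1 lower (0.00754%). Ccr7, the receptor that guides mature dendritic cells and T cells to lymph nodes, was at 13.8 and 16.1 CPM with hAEC against 22.3 and 21.7 CPM with vehicle in set A. In set B it was at 31.0 and 29.9 CPM against 20.5 and 17.98 CPM. Vehicle stood at about the same level in both sets, and hAEC lay below it in one and above it in the other (log2 -0.55 and 0.66; difference 1.22, SE 0.14; edgeR adjusted p = 0.00160). Lsp1, an actin-binding protein of leukocytes, was at 61.7 and 59.9 CPM against 79.9 and 74.9 CPM in set A and 105.5 and 99.8 CPM against 72.9 and 72.4 CPM in set B (difference 0.85, SE 0.09; edgeR adjusted p = 0.000913). Ccl22, a chemokine of dendritic cells and macrophages that draws regulatory T cells, was at 17.6 and 17.3 CPM against 24.96 and 24.95 CPM in set A and at 8.67 and 8.88 CPM against 6.89 and 6.10 CPM in set B (difference 0.95, SE 0.15; edgeR adjusted p = 0.0377).

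The semaphorin gene Sema4f was at 4.38 and 3.50 CPM with hAEC against 4.78 and 6.32 CPM in set A and at 15.97 and 15.7 CPM against 8.19 and 6.77 CPM in set B (difference 1.58, SE 0.23; edgeR adjusted p = 0.0247). Mrc2, a collagen uptake receptor, was at 3.88 and 4.23 CPM against 5.29 and 6.86 CPM and at 8.51 and 10.6 CPM against 5.51 and 4.82 CPM (difference 1.47, SE 0.24; edgeR adjusted p = 0.0438). Ptrf, the caveolar coat gene also called Cavin1, was at 31.1 and 30.6 CPM against 36.1 and 39.7 CPM and at 20.1 and 23.1 CPM against 15.5 and 14.9 CPM (difference 0.81, SE 0.13; edgeR adjusted p = 0.0351). For each of these the hAEC libraries were below vehicle in set A and above it in set B with no overlap, as also for Capn13, a calpain protease (difference 1.55, SE 0.26; edgeR adjusted p = 0.0438). Opposite separation of this kind, in either order, was found in 6.26% of all genes tested. Cetn3, a centriole protein gene, was the 1 gene with a lower difference in set B. It was listed at 0 in hAEC 11 and 12 and at 2.79 and 3.42 CPM in vehicle 19 and 20, against 2.61 and 4.80 CPM with hAEC and 2.43 and 3.69 CPM with vehicle in set A. Cetn3 was low in every library, and since reads that match several genes are shared out in the authors' counting, its zeros are uncertain.

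The 8 dendritic cell markers tested, which include Ccr7, had a median log2 difference of -0.03 in set A and 0.01 in set B. By these medians the list as a whole did not follow Ccr7. Picked from the list after their values were seen, Fscn1, the actin bundler of mature dendritic cells, had log2 differences of -0.14 in set A and 0.88 in set B, and Zbtb46 -0.11 and 0.63. These 2 moved as Ccr7 did, which by its medians the list did not. Neither passed the test of the difference between sets (edgeR adjusted p = 0.917 and 0.522). The mean log2 CPM of the 10 dendritic cell markers was 2.73 and 2.61 with hAEC against 2.73 and 2.72 with vehicle in set A. In set B it was 2.46 and 2.57 against 2.33 and 2.30. This mean includes Ccr7, Fscn1 and Zbtb46 and so partly restates them. Xcr1 and Siglech were too low to test, and the part of these cells in the result was not tested. Over all genes tested, the number past the group by set term was 22 without hAEC 11 and 24 without vehicle 18. It was 8 with every library kept, and 3 with scaling by library size alone.

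**Figure D5:**
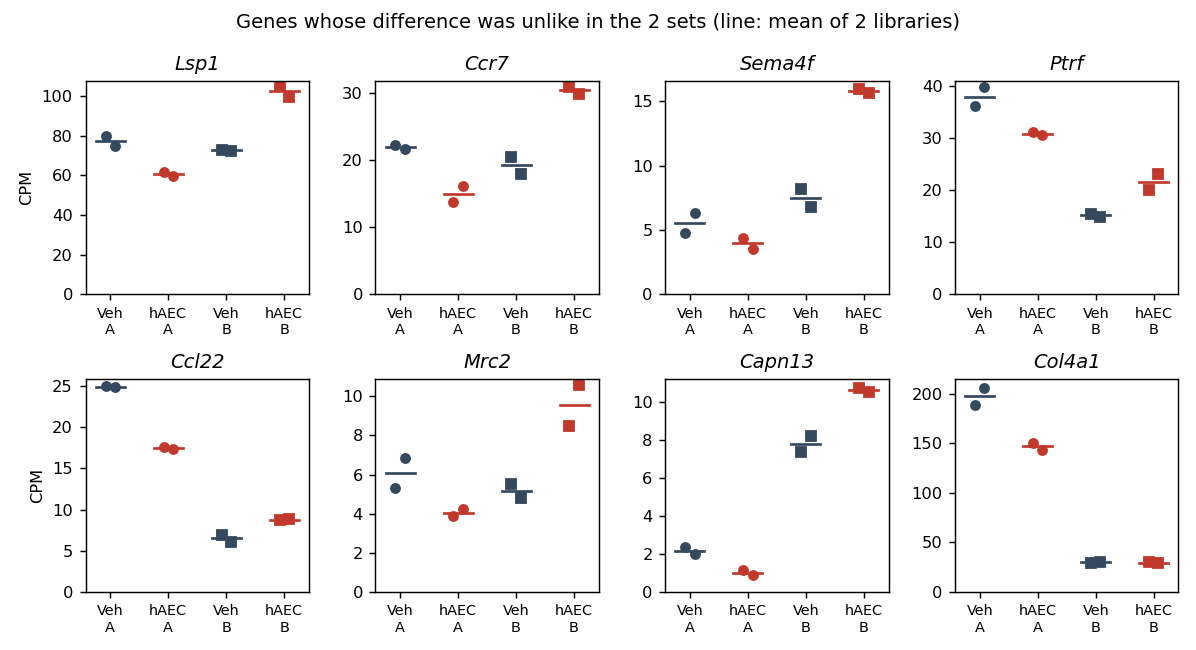
CPM (vertical axes, from 0) in each library for 8 genes, by group and set (horizontal axis; Veh is vehicle, circles set A, squares set B, lines the mean of 2 libraries). Lsp1, Ccr7, Sema4f, Ptrf, Ccl22, Mrc2 and Capn13 are lower with hAEC in set A and higher in set B. Col4a1 is lower in set A and near vehicle in set B.

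Macrophage markers as a list showed little difference: 11 of 20 were above 0 and 9 below, with a median of 0.01. Their mean log2 CPM was 7.995 and 8.04 with hAEC against 8.07 and 7.97 with vehicle in set A, and 8.74 and 8.70 against 8.68 and 8.68 in set B. Cd163, the receptor that clears haemoglobin bound to haptoglobin, was at 108.5 and 111.7 CPM against 107.9 and 98.3 CPM and at 99.0 and 96.3 CPM against 85.5 and 85.7 CPM (log2 0.14, SE 0.04; edgeR adjusted p = 0.423). Cd200r1, an inhibitory receptor of myeloid cells, came closer. It was at 98.4 and 85.9 CPM with hAEC against 78.8 and 78.9 CPM in set A and at 54.8 and 57.6 CPM against 44.7 and 47.6 CPM in set B, with no overlap (log2 0.25, SE 0.05). It missed the threshold by edgeR (adjusted p = 0.113) and passed by DESeq2 (adjusted p = 0.00899). Genes of antigen presentation had 10 of 18 members above 0 (median 0.04), among them the class II gene RT1-Ba at 0.13 (SE 0.04), which was not called.

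Cell cycle genes had 21 of 32 members above 0 and 0 called, with a median of 0.04. Top2a, the topoisomerase of dividing cells, was at 3.14 and 4.80 CPM with hAEC against 2.90 and 2.50 CPM in set A and at 11.9 and 13.9 CPM against 11.3 and 10.9 CPM in set B (log2 0.37, SE 0.13; edgeR adjusted p = 0.572). Ube2c, Mki67 and Top2a were higher without overlap in both sets, as were 4.22% of all genes tested. Foxm1 was lower in the same sense (log2 -0.11), as were 3.63% of all genes tested. Genes of glycolysis and the hypoxia response had 22 of 28 members below 0 (median -0.03) and 0 called. Aldoa, a glycolytic aldolase, was at 1972 and 2070 CPM against 2179 and 2117 CPM in set A and at 1742 and 1807 CPM against 1924 and 1928 CPM in set B (log2 -0.10, SE 0.04; edgeR adjusted p = 0.537). Hk2, the hexokinase that starts the same pathway, lay on the other side (log2 0.12, SE 0.03), with no overlap in either set.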

How the data were processed

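The authors deposited 1 table of expected counts for each library. Per the submitters' processing notes, the tools were STAR, RSEM, limma, FastQC and Trim Galore (no versions given) and the builds Rnor_6.0 and rn6. Per the labels' protocols, a stranded TruSeq mRNA kit was used on RNA from an RNAqueous-Micro extraction. RSEM shares a read among the genes it fits, so near copies are uncertain, and 90.1% of the deposited expected counts were whole. Of 32623 genes in the files, 11932 had 0 in all 12 libraries and 197 had no symbol. Some genes and markers, among them some that the rule below names, are not reported here.

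Expected counts were rounded and tested in R 4.3.3 with edgeR 4.0.16 (filterByExpr, TMM, robust glmQLFit and glmQLFTest, two-sided, Benjamini-Hochberg at 0.05 over all genes tested) on the 8 hAEC and vehicle libraries with set and group as terms. The group by set term and each set alone were fitted likewise. CPM are scaled by TMM. The SE is the log2 difference divided by the root of F. Scripts were tested on simulated data. Alternatives were other scalings, filters, DESeq2 1.42.0, limma voom 3.58.1, a fit that is not robust, 12 libraries, no set, and leaving out each library; leaving libraries out of the group by set and single-set fits was added after the data were seen. The sets, the gene lists and the rule for named genes were chosen with earlier results of these data known. The rule names genes past the test, the 10 of smallest p in each direction that have a mean of at least 5 CPM, a settled symbol and no overlap within either set, 8 stellate cell genes, up to 3 members of each list by p, and 3 of each sign for the group by set term; the text gives those that its paragraphs turn on, and other genes named were chosen after their values were seen. Lists have no test here. Counts in sets of 2 against 2 libraries rest on few residual degrees of freedom. Promoters are from RefSeq (GRCr8), matched by symbol or synonym.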

Additional observations from a re-analysis of the deposited data

Results flagged for a closer look

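Among 198 groups of 4 values, each a named gene or a library measure in 1 treatment group, 3 had a library far from the other 3 by Dixon's criterion. Chance flags about 1 in 20 where the 4 values share a level. The 4 values span both sets, so that rate does not hold for genes whose level differs between the sets, and a flag is unlikely there. Ppp1cb was at 112.2 CPM in hAEC 3, with the other hAEC libraries between 97.17 and 98.1 CPM. Mocs1, an enzyme of molybdenum cofactor synthesis, was at 64.98 CPM in vehicle 20, with the others between 61.84 and 62.01 CPM. Acta2 was at 3.01 CPM in hAEC 11, with the others between 2.335 and 2.441 CPM.

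The hAEC difference was tested between set A and set B for every gene, and 8 genes passed the group by set term. On the log2 scale the difference in set B minus that in set A was 0.85 for Lsp1, 1.22 for Ccr7, 1.58 for Sema4f, 0.81 for Ptrf, 0.95 for Ccl22, 1.55 for Capn13 and 1.47 for Mrc2. For Cetn3 the fitted value was -9.80, which depends on the prior count because 2 libraries are listed at 0, and is no measure of size. The labels do not say what the sets are, so what differs between them was not tested.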

How the results depend on the processing

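The 10 genes that passed kept their direction in 18 of 18 alternatives. These refit the same counts, and the libraries of all 10 genes were apart in both sets, so a reversal was hardly possible. The number of genes that passed did not hold. The count was 10 with relative log expression size factors, 7 with upper quartile scaling or library size alone, 8 at a mean of at least 5 CPM and 12 with limma voom. It was 30 with no expression filter, 39 with DESeq2, and 0 by edgeR with a fit that is not robust (915 genes at an unadjusted p under 0.05), with no set in the model (80) and over 12 libraries (759). Leaving out 1 library gave 0 to 13 calls. The group by set count of 8 became 3 with library size alone, 58 with no filter, 27 with DESeq2 and 3 in the fit that is not robust, and 6 to 24 leaving out 1 library. Within set A the 16 calls became 59 with DESeq2 and 38 to 145 leaving out 1 library, and within set B the 11 became 27 and 17 to 82. The cause was not tested. The median of the sterol synthesis list ran from 0.08 to 0.11 over 14 alternatives, that of the NRF2 list from -0.06 to -0.03 and that of the endothelial list from -0.19 to -0.11. No paired analysis was possible because the groups share no sample number, and the set was the only block.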

Other observations

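The transcripts that mitochondria encode were looked at after their values were seen. Of 13 measured 12 had a log2 difference above 0 and 1 below (Mt-cyb at -0.02), with a median of 0.16 (0.22 in set A and 0.14 in set B), and 0 passed by edgeR. For 5 of them the hAEC libraries exceeded vehicle in both sets, as for 4.22% of all genes tested. Mt-nd4l, a subunit of complex I, was at 96.9 and 46.2 CPM with hAEC against 31.3 and 38.0 CPM with vehicle in set A. In set B it was at 119.7 and 106.5 CPM against 30.1 and 65.3 CPM. Mt-nd3, of the same complex, was at 186.1 and 135.4 CPM against 123.8 and 111.3 CPM and at 245.5 and 224.6 CPM against 132.0 and 181.8 CPM. Libraries hAEC 3 and vehicle 20 were the highest of their group and set in both. Mt-co1, the most abundant of them, had a log2 difference of 0.01. As a share of all counts, mitochondrially encoded genes made up 2.15 and 1.77% with hAEC against 1.73 and 1.81% with vehicle in set A. In set B the share was 2.61 and 2.38% against 2.38 and 2.54%. The groups thus overlapped in this share in both sets. Ribosomal protein genes, likewise looked at afterwards, were below 0 in 66 of 79 cases (median -0.03, with -0.07 in set A and 0.00 in set B).

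In further lists, against 6389 of 13263 over all genes tested, lysosomal genes were above 0 in 13 of 30 cases, genes of the amino acid and unfolded protein response in 14 of 26, p53 targets in 8 of 18, scavenger and efferocytosis receptors in 10 of 21 and immediate early genes in 8 of 24. Vasoactive genes were above 0 in 3 of 17 cases (median -0.09) and stellate quiescence genes in 3 of 8. Of the marker lists, hepatocyte genes were above 0 in 2 of 6 cases (median -0.19), cholangiocyte and epithelial genes in 5 of 8, lymphocyte genes in 4 of 7, neutrophil genes in 2 of 5 (median -0.08) and genes of mesothelium and portal fibroblasts in 1 of 7 (median -0.12, against -0.004 over all genes tested), most of them at a few CPM or less. Nr4a2, an orphan nuclear receptor of the immediate early list, was at 6.55 and 5.71 CPM with hAEC against 6.56 and 5.64 CPM with vehicle in set A. In set B it was at 11.2 and 11.9 CPM against 7.10 and 7.83 CPM (log2 0.02 and 0.63), and the difference between the sets did not pass (edgeR adjusted p = 0.616).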
